A study of Mus musculus with 8 samples.

Results

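The 10 genes described here encode glycolysis enzymes (Hk1, Hk2, Pfkl, Pfkp, Aldoa, Gapdh, Pgk1, Pgam1, Eno1 and Ldha) and were taken by symbol from the 27998 genes of the deposited gene lists. They were measured by single-cell RNA sequencing of YFP-positive cells sorted from the lumbar cord of young adult C57BL/6 mice. The 4 control libraries were from Cx3cr1-yfp-creER/+ animals and the 4 A20 cKO libraries from Cx3cr1-yfp-creER/+; Tnfaip3 fl/fl animals, each naive and on days 1, 2 and 3 after transection of both sciatic nerves. Cre in these animals is driven from Cx3cr1, a gene of microglia that other macrophages also use, and is active only after tamoxifen, so animals of every group carried 1 modified Cx3cr1 allele and the deletion depended on the drug. Tamoxifen was given to animals of every group. Several animals' cords went into 1 library and a group was 1 library, so no difference between groups could be tested, and all intervals below are 95% intervals for counting error only.

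Glycolysis splits glucose into pyruvate in the cytosol and yields ATP without oxygen. Hexokinase and phosphofructokinase spend ATP in the early steps, aldolase cuts the sugar, and the enzymes from Gapdh onward recover NADH and ATP, after which lactate dehydrogenase can turn pyruvate into lactate and restore NAD. Microglia are the macrophages of the cord. Like other macrophages they are known to use more glycolysis when activated, and dividing cells in general draw on the pathway for building material.

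Kept cells had at least 1000 UMIs (unique molecular identifiers, which mark single captured RNA molecules), at least 500 genes and at most 10% mitochondrial UMIs. The libraries held between 558 and 3585 kept cells and between 1620481 and 15817426 UMIs in them, with medians between 2780 and 4274 UMIs per cell. Between 95.9% and 100% of kept cells of a library had UMIs of at least 4 of 6 microglia markers, and the summed level of these markers was 23381 CPM (UMIs of a gene scaled to a common total per library) in control naive and 11242 CPM in A20 cKO day 2, the highest and the lowest library. Tnfaip3 stood at between 6.83 and 25.3 CPM in the control libraries and between 42.3 and 67.7 CPM in the A20 cKO libraries, which goes against a lower level in the latter. The sources used here do not say whether the 3′ ends that were sequenced lie outside the deleted exons, so this level is no check of the deletion, and A20 cKO means a library so labelled. Control day 3 and the 4 A20 cKO libraries stood apart from the other 3. The 10 pairs among these 5 libraries shared 256 cell barcodes, the 15 pairs across the divide 98 and the 3 pairs among the others 27, and the choroid plexus marker Ttr was between 126 and 397 CPM in these 5 libraries and at 0 UMIs in the other 3. The comparisons of control day 3 with naive and day 2, and of the naive libraries with each other, cross this divide, and within them it cannot be told apart from time or genotype.

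On mouse build GRCm38 (GENCODE M21), Gapdh lies on the minus strand at chr6:125161715-125166467, Ldha on the plus strand at chr7:46841475-46855627 and Hk2 on the minus strand at chr6:82725025-82774454. The remaining members lie on chromosomes 4 (Eno1), 7 (Aldoa), 10 (Hk1 and Pfkl), 13 (Pfkp), 19 (Pgam1) and X (Pgk1). The regions before the transcription start of these 3 genes are shown because Gapdh and Ldha were the members past 1.5-fold higher than naive in control on both day 1 and day 2, and Hk2 varied least over the 8 libraries. The sequences are RefSeq's, on GRCm38.p6, each the 250 bases before a start on the gene's own strand, with no annotated exon in them. For Gapdh and Ldha these starts lie inside the extent that GENCODE gives the gene, which includes longer transcripts. Capitals mark ACGTG, the core of sites bound by HIF, a factor that activates these genes in low oxygen, and GCGTG, another core of the same factor, on either strand (ACGTG reads CACGT and GCGTG reads CACGC on the opposite strand). Where CACGTG stands whole, it is also the E-box bound by MYC and contains ACGTG on both strands.
Ldha, chr7:46845554-46845803, plus strand: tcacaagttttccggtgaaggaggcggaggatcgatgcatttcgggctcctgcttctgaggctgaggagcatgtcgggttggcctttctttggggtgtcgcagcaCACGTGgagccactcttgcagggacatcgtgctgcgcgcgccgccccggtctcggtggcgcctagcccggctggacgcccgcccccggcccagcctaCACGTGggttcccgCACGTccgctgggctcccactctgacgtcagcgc
Gapdh, chr6:125165774-125166023, minus strand: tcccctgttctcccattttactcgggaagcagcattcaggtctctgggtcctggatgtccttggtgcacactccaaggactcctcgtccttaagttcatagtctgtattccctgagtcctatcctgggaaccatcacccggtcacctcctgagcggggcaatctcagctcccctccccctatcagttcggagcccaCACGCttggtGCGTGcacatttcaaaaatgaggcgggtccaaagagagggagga
Hk2, chr6:82774455-82774704, minus strand: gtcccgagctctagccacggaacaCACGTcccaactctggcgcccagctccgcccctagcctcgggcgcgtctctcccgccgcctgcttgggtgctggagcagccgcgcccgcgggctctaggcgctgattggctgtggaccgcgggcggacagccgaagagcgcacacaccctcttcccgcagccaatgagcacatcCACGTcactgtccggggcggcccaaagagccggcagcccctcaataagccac

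All 10 members matched at least 1 promoter window of 300 bases, in 16 windows. CACGTG occurred in 1 of the 16, the Ldha window shown above, which holds 2 such sites, and in 7.15% of all 32851 windows. The other Ldha window, at chr7:46846832-46847131, held no CACGTG or ACGTG. Some windows of Aldoa and of Eno1 overlap, so a site can be counted more than once below. ACGTG occurred in 8 of the 16 windows, from 7 members, and in 19.6% of all windows. GCGTG occurred in 10 of the 16, again from 7 members, and in 32.4% of all windows. These matches describe the letters of the windows and were not tested as sites.

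The summed level of the 10 members was lowest in the naive libraries of both genotypes. Control cells held 1634 CPM before injury and 2208, 2273 and 1842 CPM on the 3 days after it. The A20 cKO sum stood at 1732 CPM before injury and at 1882, 2001 and 2326 CPM after it. In all kept cells the control sum was thus highest on day 2 and the A20 cKO sum on day 3. In cells of neither phase class (G2/M or S, defined below) the control sum was lower on day 2 than on day 1. Ldha was 326 CPM on day 1 and 235.5 CPM on day 2 in these cells, and Hk2 427 and 390 CPM. Going the other way were Eno1, at 287 and 312 CPM, Aldoa, at 277 and 291 CPM, and Pgam1, at 123 and 129 CPM. A sum over a library does not separate more RNA per cell from a different mix of captured cells. Each UMI is a tag from a 3′ end, so levels carry no scaling for gene length, although genes can differ in how well they are captured. Hk2 and Gapdh were the first and second members by UMI count in every library, with Hk2 first in control naive, A20 cKO naive and A20 cKO day 1 and Gapdh first in the other 5.

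Gapdh, which oxidizes glyceraldehyde 3-phosphate and makes NADH, stood at 330.1 CPM in naive control cells and at 645, 760.2 and 573 CPM on the 3 days after injury. The A20 cKO libraries held 407 CPM before injury and 399, 597 and 695 CPM after it. All 3 injured control libraries were above control naive, whereas A20 cKO day 1 was level with A20 cKO naive. Ldha, the lactate dehydrogenase subunit that favours lactate formation, stood at 152 CPM in naive control cells and then at 341, 283 and 204 CPM. Its A20 cKO levels were 166 CPM before injury and 259.5, 240.0 and 261 CPM after it. In all kept cells Ldha was thus highest on day 1 in control, a day earlier than Gapdh. It was already high on day 1 in A20 cKO, when Gapdh was not. In cells of neither phase class (G2/M or S, defined below), Gapdh was level on control days 1 and 2, at 614 and 608.5 CPM. Ldha was 326 and 235.5 CPM in these cells.

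Hk2, a hexokinase that can bind mitochondria and commits glucose to the cell, varied least. Control cells held 412 CPM before injury and 429.8, 364 and 370.1 CPM after it. In A20 cKO cells the naive level was 428 CPM, followed by 472, 374 and 454 CPM. The highest Hk2 level was 1.30 times the lowest, and only 4.61% of 3467 genes averaging 50 CPM or more spanned a smaller range over the 8 libraries. The median gene of that set spanned 1.82-fold, Gapdh 2.30-fold and Ldha 2.24-fold. Pgk1, at 2.74-fold, and the low-count Hk1, at 3.29-fold, spanned more.

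**Figure D1:**
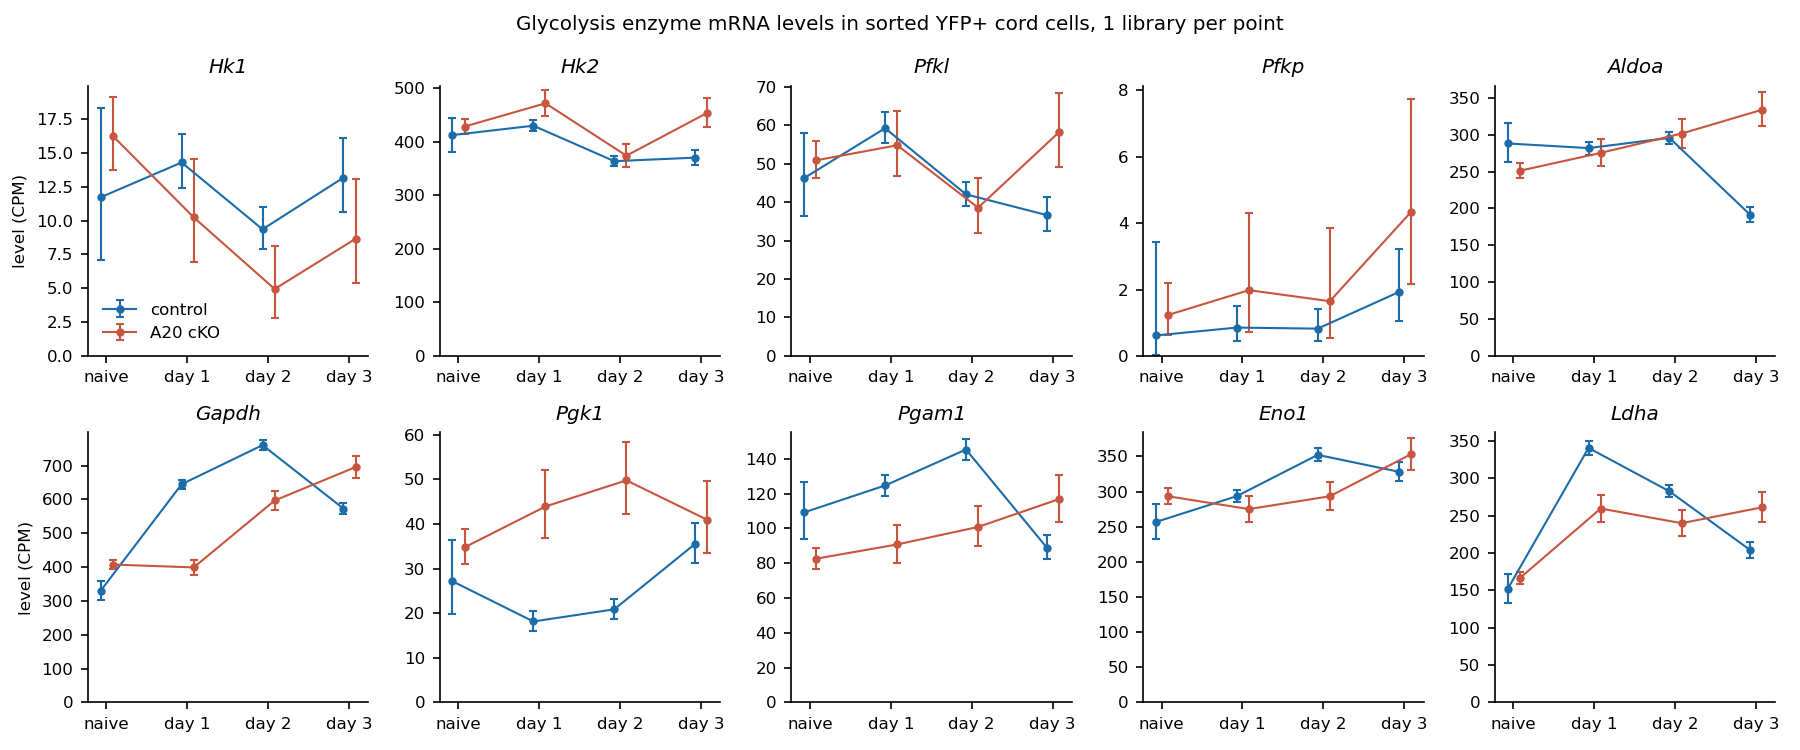
Levels of the 10 members in CPM (vertical axes, each from 0) in the naive, day 1, day 2 and day 3 libraries of control (blue) and A20 cKO (red) animals. Each point is 1 library, bars are 95% Poisson intervals for counting error and lines join libraries of a genotype. Gapdh runs from 330.1 to 760.2 CPM while Hk2 stays between 364 and 472 CPM.

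Of the enzymes between hexokinase and Gapdh, Aldoa had control levels of 288, 282, 296 and 191 CPM, in order of time from naive. This aldolase, which cuts fructose bisphosphate, had levels of 251, 275, 302 and 334 CPM in the A20 cKO series. Control day 3 stood below the other 7 libraries. Pfkl, the liver form of phosphofructokinase, ranged from 36.6 CPM in control day 3 to 59.3 CPM in control day 1. Pfkp, the platelet form, had between 1 and 14 UMIs in a library and between 0.617 and 4.33 CPM, so no fold change is given for it.

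Among the later steps, Eno1 (enolase) lay between 257 CPM in control naive and 353 CPM in A20 cKO day 3, a range of 1.37-fold. Pgam1 (phosphoglycerate mutase) had control levels of 109, 125, 145 and 88.9 CPM and A20 cKO levels of 82.6, 90.8, 101 and 117 CPM in the same order. Pgk1 (phosphoglycerate kinase) followed with 27.2, 18.1, 20.9 and 35.5 CPM for control, and 34.8, 43.9, 49.8 and 40.9 CPM for A20 cKO. In all kept cells its 3 lowest values were those of the 3 control libraries outside the group of 5, so there its order follows the divide in shared barcodes. In cells with 2000 to 4000 UMIs it does not. Control naive, at 28.7 CPM, was then above control day 3, at 28.3, and A20 cKO days 2 and 3, at 21.7 and 25.6 CPM. The low level of Pgk1 next to its neighbours in the pathway is uncertain, because Gapdh, Pgk1, Eno1 and Ldha have near-identical copies in the genome that can take or void reads. The copy Pgk1-rs7 was counted at between 0.253 and 3.70 CPM and Eno1b at between 8.30 and 18.7 CPM.

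In the control libraries, the comparison with naive asks which of these enzymes changed after injury. Past 1.5-fold, the size used here in place of a test, day 1 was higher for 2 of the 9 members with at least 100 UMIs in both libraries together, against 10.6% of 8866 genes, and lower for 1, against 21.4% of genes. The higher ones were Ldha, with a log2 ratio of 1.16 (0.98 to 1.36), and Gapdh, with 0.96 (0.84 to 1.09), and the lower one was Pgk1, with -0.60 (-1.05 to -0.09). The median of all genes was shifted by -0.13, relative to which Ldha stood at 1.29 and Gapdh at 1.09, and Pgk1, at -0.47, was not past 1.5-fold. With TMM factors, another scaling of the libraries, Pgk1 was likewise short of it, at -0.35, and Pfkl was past it, at 0.59. On day 2 Gapdh, with a log2 ratio of 1.20 (1.08 to 1.33), and Ldha, with 0.89 (0.71 to 1.09), were higher and no member lower, against 13% and 19.8% of genes and a median of all genes of -0.12. With TMM factors Eno1, at 0.66, and Pgam1, at 0.62, were past 1.5-fold as well. Early response and heat shock genes, which rise during cell isolation, summed to 16912 CPM in control day 1 and to between 734 and 3742 CPM in the other 7 libraries. Their part in the day 1 values was not tested.

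Between days 2 and 1 of control only Hk1, the hexokinase of most tissues, was past 1.5-fold, at 9.36 against 14.3 CPM and a log2 ratio of -0.61 (-0.93 to -0.30), against 8.57% of genes higher and 4.44% lower. Control day 3 against naive, which crosses the divide, had Gapdh higher, with a log2 ratio of 0.79 (0.66 to 0.93), and Aldoa lower, with -0.59 (-0.74 to -0.44), against 20.3% and 10.3% of genes. Against day 2, which crosses it too, Pgk1 was higher by 0.77 (0.53 to 1.01) and Pgam1 and Aldoa were lower, at -0.71 (-0.84 to -0.58) and -0.63 (-0.72 to -0.54), against 27.8% of genes higher and 10.6% lower. The median gene was shifted by 0.15 there, relative to which Pgk1 stood at 0.62, Aldoa at -0.77, Pgam1 at -0.85 and Ldha at -0.62. With TMM factors Pgk1, at 0.54, was no longer past 1.5-fold. Ldha, at -0.70, and Gapdh, at -0.63, were then past it with Pgam1 and Aldoa, so that 4 members were lower and none higher. Among cells with 2000 to 4000 UMIs, by contrast, Pgk1, at 1.30 (0.84 to 1.77), and Hk1, at 0.64 (0.06 to 1.21), were past 1.5-fold higher. Pgam1, at -0.76, and Ldha, at -0.59, were past it lower in these cells, and Aldoa, at -0.584, fell short of it.

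The naive libraries were compared for differences between the genotypes before injury, although Tnfaip3 was 47.4 CPM in the one labelled A20 cKO and 24.1 CPM in control. No member was past 1.5-fold in all kept cells, against 18.8% of 8641 genes higher and 9.04% lower. Gapdh, with a log2 ratio of 0.30 (0.17 to 0.44), and Pgam1, with -0.41 (-0.64 to -0.16), were farthest from 0 among members whose interval left out 0. In cells with 2000 to 4000 UMIs Pgam1 was past 1.5-fold lower, at -0.62 (-0.88 to -0.34). After injury in A20 cKO, Ldha was higher on day 1, by 0.64 (0.51 to 0.77), and Hk1 lower, at -0.65 (-1.28 to -0.10), against 7.04% and 5.29% of genes. With TMM factors Ldha, at 0.57, was under 1.5-fold. On day 2 Gapdh, at 0.55 (0.47 to 0.63), and Ldha, at 0.53 (0.40 to 0.66), stayed under 1.5-fold, and Hk1 alone was past it, at -1.67 (-2.59 to -0.95), against 7.14% of genes higher and 10.3% lower. On day 3 Gapdh, by 0.77 (0.69 to 0.85), and Ldha, by 0.65 (0.52 to 0.78), were higher and Hk1 lower, at -0.88 (-1.63 to -0.26), against 5.55% and 9.33% of genes. Hk1 rested on few molecules, with 145 UMIs in A20 cKO naive and 31, 15 and 22 UMIs on days 1 to 3.

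Between the genotypes on day 3, 2 members were past 1.5-fold higher in A20 cKO and none lower, against 4.98% and 9.91% of 8488 genes. Aldoa was 334 against 191 CPM, a log2 ratio of 0.81 (0.68 to 0.93), and Pfkl 58.2 against 36.6 CPM, a log2 ratio of 0.67 (0.37 to 0.96). Both libraries were among the 5 that shared barcodes. Gapdh, at 695 against 573 CPM, differed by 0.28 (0.20 to 0.36) and Ldha, at 261 against 204 CPM, by 0.36 (0.22 to 0.49), both under 1.5-fold. The median of all genes was -0.12. Tnfaip3 itself was higher in the library labelled A20 cKO, at 67.7 against 20.3 CPM.

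Levels of several members followed the number of UMIs of the cell. Within each library the level was taken in cells with 2000 to 4000 UMIs and in cells with over 4000 UMIs. The shallower cells of the control series held 310.1, 496, 548 and 428 CPM of Gapdh in order of time, and the deeper ones 539.9, 725, 886 and 785 CPM. In the A20 cKO series the shallower cells held 336, 334, 323 and 448 CPM and the deeper ones 660.0, 502, 712 and 793 CPM. The cells with more UMIs were therefore higher in 8 of 8 libraries, by a median log2 ratio of 0.81. Aldoa and Eno1 were also higher in 8 of 8 libraries, with medians of 0.22 and 0.43, against 6.72% of 11746 genes higher in all 8 and 8.37% lower in all 8. Ldha, Pgam1, Pgk1 and Pfkl were higher in 7 of 8, with medians of 0.54, 0.45, 0.87 and 0.13, and Hk2 was lower in 7 of 8, with a median of -0.17. The deeper class of control naive held 43 cells.

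**Figure D2:**
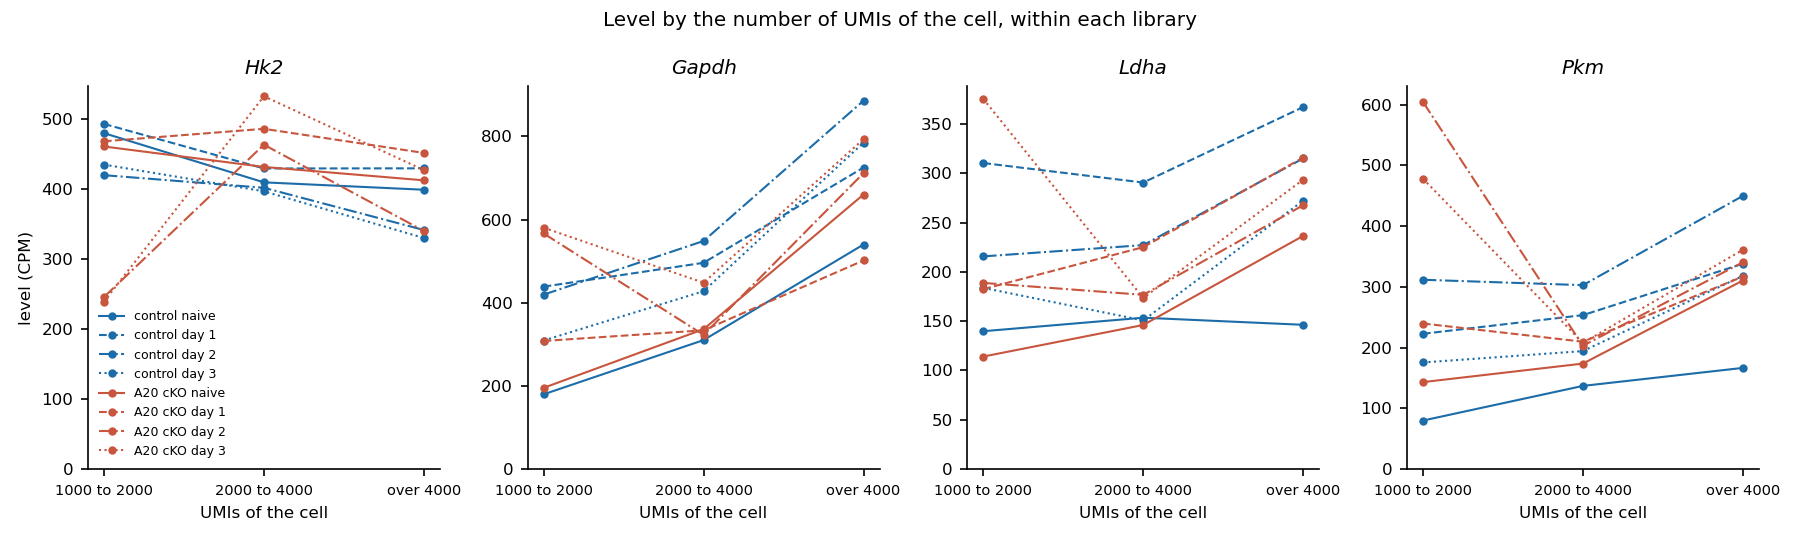
Levels in CPM (vertical axes, from 0) of Hk2, Gapdh, Ldha and Pkm in kept cells with 1000 to 2000, 2000 to 4000 and over 4000 UMIs (horizontal axes), for the 4 control (blue) and 4 A20 cKO (red) libraries, 1 line each. Gapdh is higher over 4000 UMIs than from 2000 to 4000 in all 8 libraries, and the lowest class holds only 41 and 20 cells in A20 cKO day 2 and day 3.

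Since the injured libraries had more UMIs per cell, the comparisons were repeated in cells with 2000 to 4000 UMIs alone. The control differences were smaller but stood past 1.5-fold on days 1 and 2 for Gapdh, at 0.68 (0.53 to 0.83) and 0.82 (0.67 to 0.97). Ldha was higher by 0.92 (0.71 to 1.14) on day 1 and by 0.56 (0.35 to 0.79), under 1.5-fold, on day 2. On day 3 of control Gapdh differed by 0.46 (0.31 to 0.62) and Ldha by -0.03 (-0.26 to 0.21). In A20 cKO Ldha kept its day 1 difference, 0.62 (0.45 to 0.80), whereas Gapdh on day 2, 323 against 336 CPM in naive, had a log2 ratio of -0.06 (-0.24 to 0.12). On day 3 of A20 cKO Gapdh differed by 0.42 (0.24 to 0.59) and Ldha by 0.25 (-0.04 to 0.52). Pgk1 of control went the other way and was farther below naive among these cells, at -1.15 (-1.74 to -0.52) on day 1 and -1.33 (-1.92 to -0.70) on day 2. Between the genotypes on day 3 Aldoa and Pfkl remained past 1.5-fold, at 0.69 (0.46 to 0.91) and 0.76 (0.19 to 1.28).

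**Figure D3:**
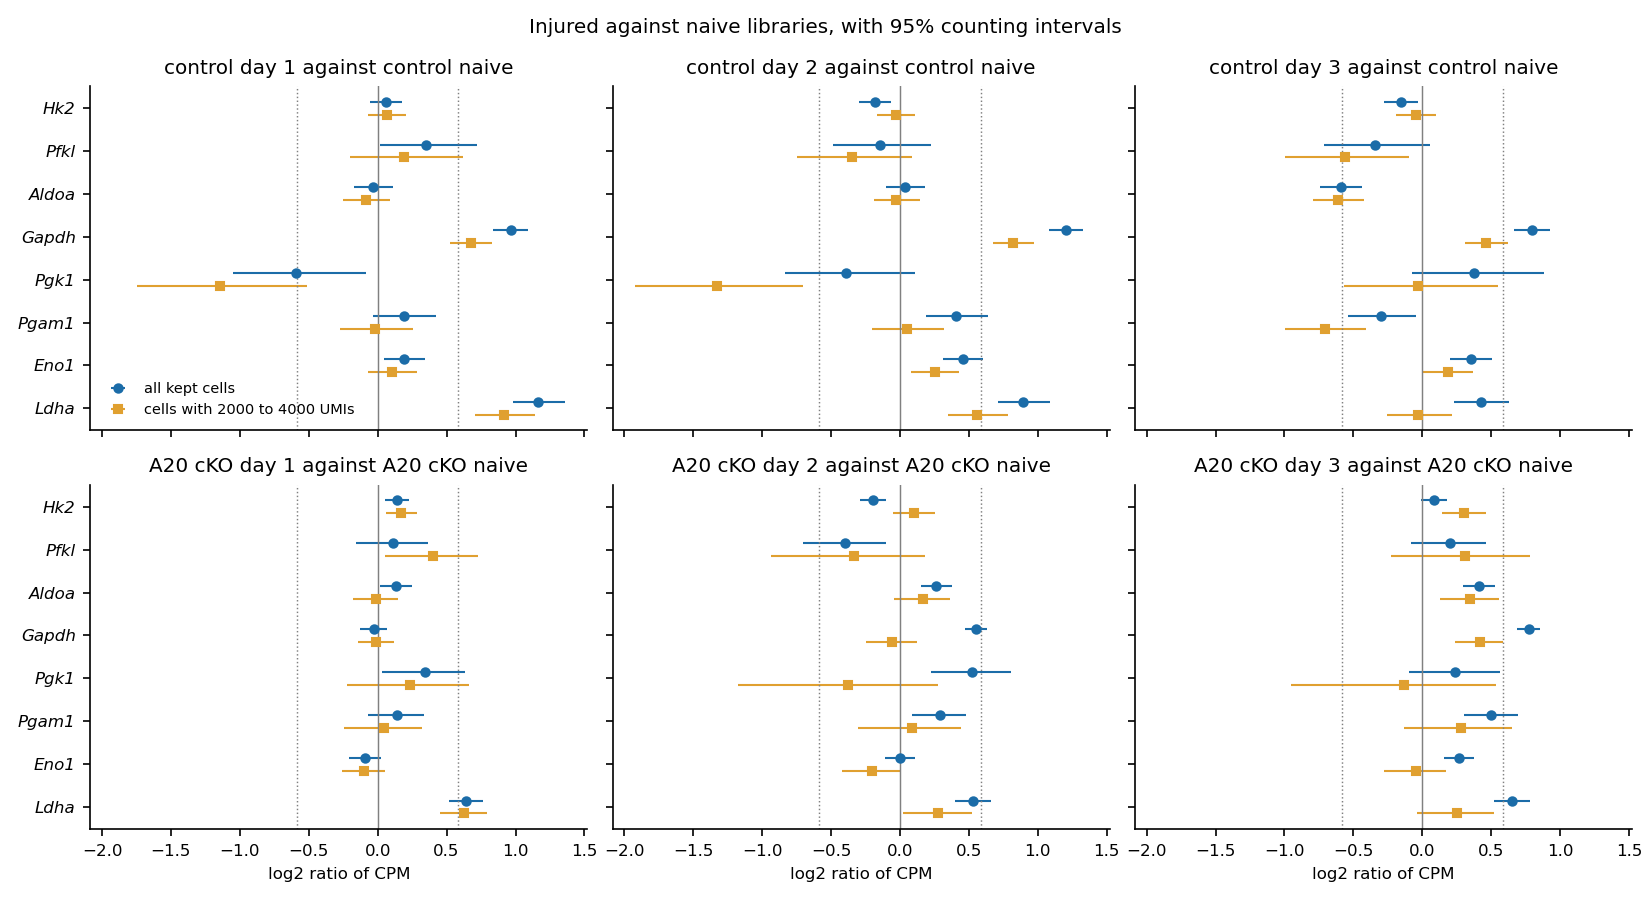
Log2 ratio of the level in each injured library to the naive library of its genotype (horizontal axes) for 8 members, in all kept cells (blue circles) and in cells with 2000 to 4000 UMIs (orange squares), with 95% counting intervals. Dotted lines mark 1.5-fold. Gapdh in A20 cKO day 2 moves from 0.55 in all cells to -0.06 in cells of like depth, and Ldha on day 1 stays to the right of the line in both genotypes.

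Which gene supplies a step differed little between libraries except at lactate dehydrogenase. Hk2 made up between 86.3% and 91.9% of hexokinase UMIs, Pfkl between 89.7% and 97.4% of phosphofructokinase UMIs, Aldoa between 96.3% and 99.7% of aldolase UMIs and Eno1 between 90.0% and 94.4% of enolase UMIs. The second hexokinase by UMIs was Hk3, a form of blood cells, with between 4.93% and 11.2%. Of lactate dehydrogenase UMIs in control cells, Ldha made up 26.0% (23.2 to 28.9%) before injury, and 45.8% (44.8 to 46.8%), 37.7% (36.8 to 38.6%) and 31.8% (30.5 to 33.2%) over the 3 days after it. Its share in A20 cKO cells was 30.5% (29.2 to 31.8%) before injury, and 54.2% (51.6 to 56.8%), 44.5% (42.1 to 46.9%) and 44.0% (41.5 to 46.6%) after it. Day 1 thus had the highest share in both genotypes. The other subunit, Ldhb, which favours pyruvate formation, was between 403 and 467 CPM in the 4 control libraries but 379 CPM in A20 cKO naive and 219.6 CPM in A20 cKO day 1, so the A20 cKO share combines a higher Ldha and a lower Ldhb.

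**Figure D4:**
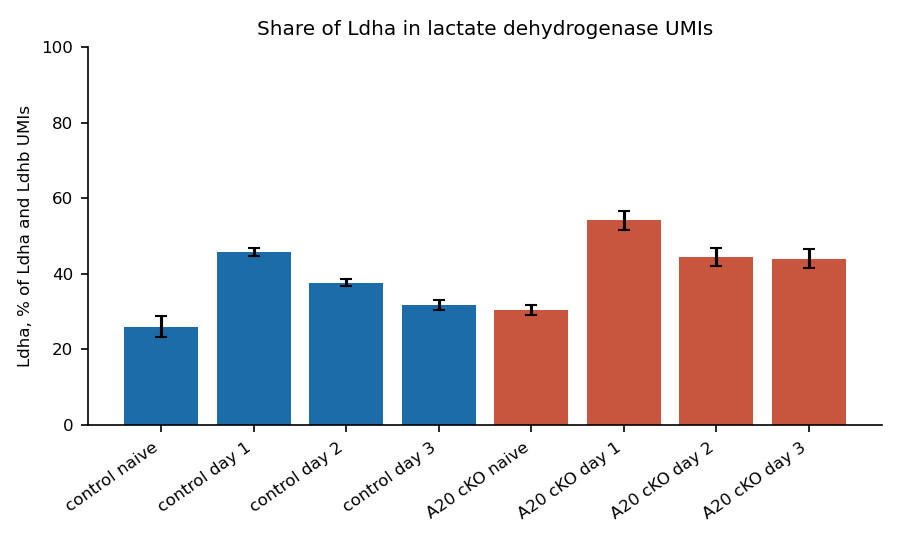
Share of Ldha in the summed UMIs of lactate dehydrogenase genes, in percent (vertical axis, from 0 to 100), in the 4 control (blue) and 4 A20 cKO (red) libraries. Bars are single libraries with 95% Clopper-Pearson intervals for counting error, and no UMI of Ldhc was found. Day 1 is the highest bar of each genotype, at 45.8% and 54.2%.

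Of the 19 other listed glycolysis genes, 8 had at least 100 UMIs in control day 1 and naive together. Of these, 1 was past 1.5-fold higher and 2 lower, where 10.6% and 21.4% of all genes were. On day 2 these counts were 2 and 1, where 13% and 19.8% of all genes were. The higher one on both days was Pkm, the pyruvate kinase that ends glycolysis, with 137, 308, 396 and 246 CPM over the control series and 205, 253, 305 and 319.9 CPM over that of A20 cKO. Its order in control was that of Gapdh in all kept cells. Tpi1, which interconverts the triose phosphates, had 88.9, 121, 151 and 77.9 CPM over the control series, and 79.7, 89.5, 103 and 124 CPM over the other. Hk3 stood at 53.7 CPM in control naive, at 23.0 CPM a day after injury and at 23.1 CPM on day 2.

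Of 9 genes of glucose and lactate transport, 8 were measured on control day 1, of which 3 were higher and none lower, where 10.6% and 21.4% of all genes were. The list went the other way in 2 comparisons across the divide. Control day 3 against naive had 2 of 8 higher and 4 lower, with a median of -0.62 and against 20.3% and 10.3% of genes, and A20 cKO naive against control naive had 1 of 8 higher and 3 lower, against 18.8% and 9.04%. Slc16a3, a lactate exporter, had control levels of 52.5 CPM before injury and 83.8, 75.6 and 28.1 CPM after it. Slc2a5, the fructose transporter that marks microglia, had control levels of 262, 255, 220.3 and 166 CPM and A20 cKO levels of 151, 71.7, 33.0 and 43.3 CPM, and in A20 cKO all 3 injured libraries were below naive. Of 14 regulators of glycolytic flux, 10 were measured on control day 2, of which 2 were higher and 3 lower, where 13% and 19.8% of all genes were. Lower were Txnip, which curbs glucose uptake, at 285.7 CPM naive and 149.96 on day 2, and Pfkfb3, which makes the activator of phosphofructokinase, at 75.9 and 37.8 CPM. Of 12 genes of HIF and its other targets, 5 were measured on control day 1 with a median log2 ratio of -0.33. None was past 1.5-fold, where 10.6% of all genes were higher and 21.4% lower. Ddit4, a stress-induced inhibitor of mTORC1, was 9.87, 8.04 and 23.2 CPM in control naive, day 1 and day 2 and between 66.9 and 256 CPM in the 5 libraries that share barcodes. Of 13 genes of the pentose phosphate pathway and glycogen, 11 were measured on control day 1. Of these, 1 was higher and 1 lower, where 10.6% and 21.4% of all genes were. The higher one, Tkt, a transketolase, was 156 against 90.7 CPM.

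Cells in division were compared with other cells of the same library, after each cell was thinned to 2000 UMIs. Strict G2/M cells showed 3 or more of 18 core genes of that phase, and the cells they were compared with met neither this rule nor its counterpart for S phase. In the 6 libraries with at least 20 such cells, Gapdh was higher in G2/M cells in 6 of 6, by a median log2 ratio of 0.67, and Hk2 was lower in 6 of 6, by a median of -0.62. Gapdh was 842 CPM in G2/M cells and 647 in the others in control day 2, and 725 against 359.7 in A20 cKO naive. Hk2 was 339 against 391 CPM in control day 2 and 167 against 449 CPM in A20 cKO day 2. Aldoa was also lower in 6 of 6, by a median of -0.30, with every interval reaching 0. No other member with at least 50 UMIs was on 1 side in all 6. Of 10597 genes, 14.5% were higher and 5.01% lower in every library, and their median log2 ratio was 0.13.

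G2/M cells had medians of between 4880 and 6958 UMIs before thinning and the others of between 2901 and 4193. Limited to cells between the lower and upper quartile of G2/M depth, 4 libraries kept at least 20 cells on each side. Gapdh was then higher in 1 of 4, with a median of -0.07, and at 801 against 814 CPM in control day 2. Hk2 stayed lower in 4 of 4, with a median of -0.43, as did Aldoa, with -0.40. The share of all genes lower in all 4 was not measured for these cells, so these counts have no background. The exception for Gapdh was A20 cKO naive, with 786 against 551 CPM and a log2 ratio of 0.52 (0.08 to 0.92), and in the other 3 libraries the interval reached 0. For Hk2 the interval reached 0 in 2 of the 4 libraries, and the lowest ratio, in A20 cKO day 2, rested on 37 G2/M cells.

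**Figure D5:**
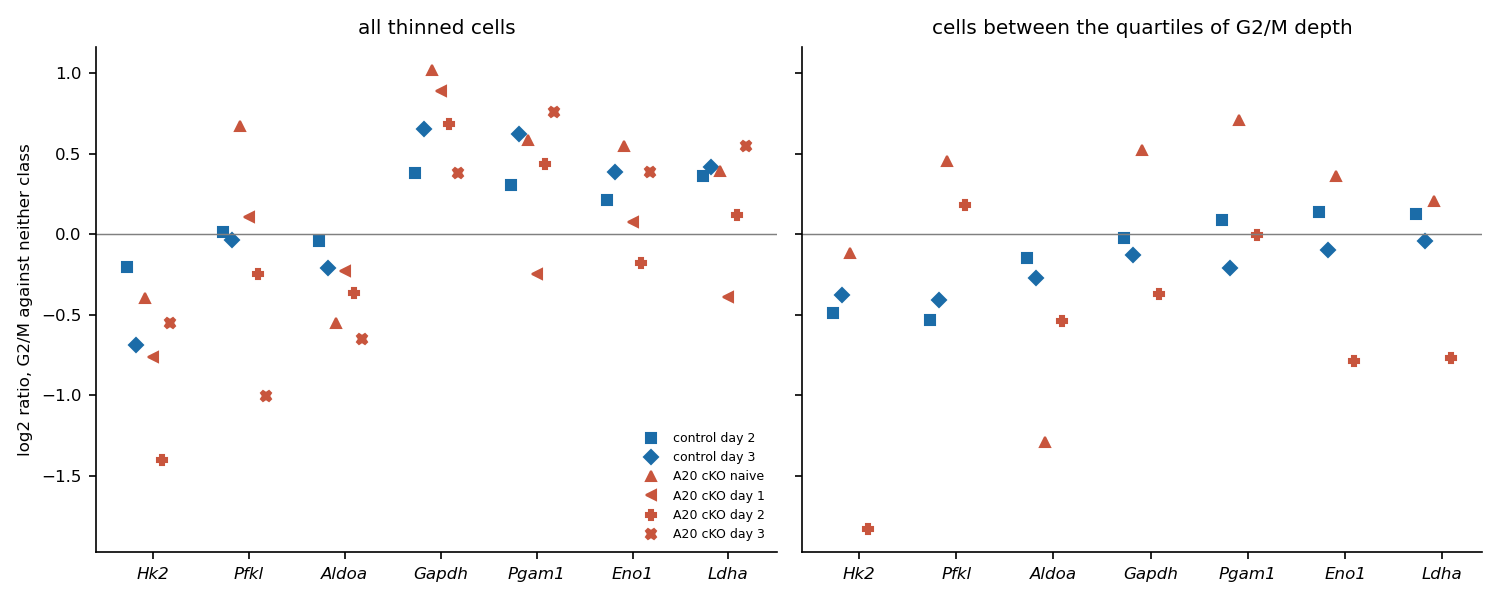
Log2 ratio of the level in strict G2/M cells to that in cells of neither class (vertical axis) for 7 members, with 1 symbol per library, in all thinned cells (left) and in cells between the quartiles of G2/M depth (right). Gapdh lies above 0 in all 6 libraries on the left and in 1 of 4 on the right, and Hk2 lies below 0 throughout.

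Strict S cells, by at least 3 of 12 core S genes, had Pfkl higher in 6 of 6 libraries, with a median of 0.48 and every interval reaching 0, against 13.4% of 10717 genes higher and 1.39% lower in every library and a median of all genes of 0.25. Gapdh and Ldha were higher in 5 of 6, both with medians of 0.29. Limited to S cells and others of like depth, 2 libraries remained, with Pfkl ratios of -0.99 (-6.88 to 0.93) and -1.21 (-4.59 to 0.38), intervals too wide to give a direction. Pfkp had too few UMIs for this comparison. The 0.5 UMIs added to both sums weigh more in the smaller class, here the S cells. They raise the ratios of genes with few UMIs, so the shares of all genes are tilted toward higher. How far this raised the Pfkl ratios was not measured.

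Myc, whose protein is known to activate many of these genes, was highest in control day 1, at 96.5 CPM, and in A20 cKO day 1, at 85.5 CPM, and between 31.5 and 54.8 CPM in the other 6 libraries. Cells with a Myc UMI were compared with cells without one in all 8 libraries. None of the 9 members with at least 50 UMIs lay on 1 side in all 8, against 1.51% of 11016 genes higher and 0.172% lower. Ldha was higher in 5 of 8, with a median log2 ratio of 0.05, Gapdh in 5 of 8, with 0.11, and Eno1 in 7 of 8, with 0.14. These medians were close to the 0.08 found over the compared genes together. Farther from it, Pgk1 was higher in 7 of 8, with 0.34, and Hk1 lower in 7 of 8, with -0.37. Only 1 Pgk1 interval lay above 0, and no Hk1 interval lay below 0. Pgam1 and Aldoa were lower in 6 of 8, with -0.21 and -0.06. Limited to cells between the quartiles of the depth of cells with a Myc UMI, 7 libraries remained. Hk1 was then higher in 5 of 7, with a median of 0.69, and Pgk1 in 5 of 7, with 0.24. In A20 cKO days 2 and 3 the Hk1 ratio was above 0 although cells with a Myc UMI held 0 CPM. It came from the UMIs added to both sums, so these cells give Hk1 no direction. Eno1 was higher in 4 of 7, with 0.001. Pgam1 and Aldoa stayed lower, in 5 of 7, with -0.41 and -0.16. The share of genes reaching such counts was not measured. A cell without a Myc UMI at this depth may still hold Myc RNA, which limits this split.

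In cells thinned to 2000 UMIs, the 10 members together gave control means of 3.30 UMIs per cell before injury and 4.30, 4.31 and 3.52 UMIs after it. The A20 cKO means were 3.34 UMIs before injury and 3.57, 3.83 and 4.33 UMIs after it. The variance over cells was between 1.21 and 1.63 times the mean, where counting alone gives a ratio of 1. Between 1.67% and 5.78% of cells had no UMI of any member. The share of cells with a Gapdh UMI in the control series was 45.8%, 68.5%, 71.4% and 61.3%, and 54.2%, 85.6%, 86.9% and 71.3% without thinning. For Hk2 the thinned share lay between 49.4% and 58.3% in the 8 libraries, and the unthinned one between 65.1% and 81.9%. No cell type lacks these enzymes, so a background share of free RNA could not be measured.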

How the data were processed

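For 8 libraries the authors deposited raw UMI counts, a matrix of genes by barcodes each. Per the submitters' processing notes they were made with Cell Ranger 2.1.1 on mm10. The labels name kit v3.1 of the 10x 3′ chemistry and the methods another version. The sources used here give no thresholds for the study's cell filter. From these counts, UMIs of kept cells were summed per library and scaled to CPM. Log2 ratios had 0.5 UMIs added and were called past 1.5-fold, among genes reaching 100 UMIs over the pair of sums, with no test because each group had 1 library. Cells are not replicates. Intervals were exact Poisson, Clopper-Pearson or conditional intervals at 95%, and cover counting error only. Ratios and intervals were tested on simulated data. Thinning drew 2000 UMIs per cell without replacement and left out shallower cells, 13691 of 14626 remaining. No doublet caller was run. The methods excluded doublets at sorting, which does not cover cells that met in a droplet afterwards. Cells with many UMIs may therefore include some. Cells were not clustered. Software was Python 3.11.15, numpy 2.4.6, scipy 1.17.1, pandas 2.3.3 and R 4.3.3, with edgeR 4.0.16 for TMM factors only. Genes outside the 10 members were named if past 1.5-fold in a comparison with a mean of at least 20 CPM, at most 3 highest and 3 lowest per comparison, or as isoenzymes of a step. The members, gene lists and classes were chosen with earlier results of these data known, and the limits on cell depth were added after the values had been seen. Alternatives were other cell sets, TMM factors, the mean of cell CPM, other thinning and no filter on low counts.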

Additional observations from a re-analysis of the deposited data

Results flagged for a closer look

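In 3 cases a member lay on opposite sides of naive in the 2 genotypes on the same day, with intervals for counting error that left out 0. With 1 library per group the difference was not tested in any of them. Pgk1 on day 1 had a log2 ratio of -0.60 in control and 0.34 in A20 cKO. With TMM factors the control value was -0.35, and whether its interval then left out 0 was not measured. In cells with 2000 to 4000 UMIs the values were -1.15 and 0.24, the latter with an interval of -0.22 to 0.66. Aldoa on day 3 had -0.59 in control and 0.41 in A20 cKO, and -0.61 and 0.35 in cells of that depth. Pgam1 on day 3 had -0.30 in control and 0.50 in A20 cKO, and -0.71 and 0.28 in cells of that depth, the latter with an interval of -0.13 to 0.65. Control day 3 and control naive lie on either side of the divide in shared barcodes, and the A20 cKO libraries all on 1 side of it, so for Aldoa and Pgam1 the divide and the genotype cannot be told apart.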

How the results depend on the processing

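Of the log2 ratios of single members recomputed under the alternatives, 40 of 800 changed sign, 32 of them from a reported value whose counting interval held 0. Of the 8 others, those under TMM factors and in cells of neither phase class were Hk2 on control day 2 against naive, 0.026 with TMM factors (reported as -0.18), and Gapdh on control day 2 against day 1, -0.013 in cells of neither class (reported as 0.24). Those in cells with 2000 to 4000 UMIs, an alternative chosen after seeing the data, were Ldha on control day 3 against naive (-0.028), Aldoa on A20 cKO day 1 (-0.014), Hk2, Gapdh and Pgk1 on A20 cKO day 2 (0.10, -0.058 and -0.38) and Eno1 on A20 cKO day 3 (-0.044), each against A20 cKO naive. The median over the members moved from 0.01 to -0.17 on control day 2 against day 1 in cells of neither class, and from -0.15 to -0.37 on control day 3 against day 2 with TMM factors. The number of members past 1.5-fold rose from 2 to 4 on control day 2 against naive with TMM factors, fell from 2 to 1 on control day 3 against naive with all barcodes, cells of neither class or the mean of cell CPM, and rose from 1 to 2 on control day 2 against day 1 in cells of neither class. It fell from 2 to 1 on A20 cKO day 1 with the stricter cell filter, cells of neither class, cells with 2000 to 4000 UMIs or TMM factors. In cells with 2000 to 4000 UMIs it was 1 (reported as 0, and here Pgam1) for A20 cKO naive against control naive and 1 (reported as 3) for A20 cKO day 3 against naive. The other medians, including those of the phase and Myc classes, stayed within their counting intervals and the other counts within 1.5 times the reported one, which does not make the members the same. With TMM factors, the count on control day 1 against naive stayed at 3 while Pgk1 (-0.35) gave way to Pfkl (0.59), and that on control day 3 against day 2 went from 3 to 4. Of the calls lost on A20 cKO day 1, the one under TMM factors was Ldha (0.57) and the others were Hk1 (-0.58 to -0.52). Aldoa was the call lost on control day 3 against naive (-0.56 to -0.52). Ldha on A20 cKO day 3 was 0.56 in cells of neither class. Of the shares of cells with a UMI, 72 left their interval and 88 did not, and of the shares within a step 6 did and 354 did not. Without a filter on low counts the share of genes past 1.5-fold lay between 31.9% and 50.6% over the comparisons, against 12.3% to 38.4% with it. No paired analysis was possible because each group has 1 library, and for the same reason no replicate could be left out. Hk1 and Pfkp are limited by their few UMIs.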
